A study of Mus musculus with 35 samples.

Results

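The acrosome genes described here are 10 genes that encode proteins of the acrosome, the secretory vesicle on the head of the spermatid and sperm. They are Acr, Acrbp, Acrv1, Spaca1, Spaca3, Spaca4, Spaca7, Spam1, Zpbp and Zpbp2. They were chosen by name, and each matched 1 of the 24411 gene rows of the deposited tables. The study compared mice that lack SMG6, an endonuclease of nonsense-mediated mRNA decay, in male germ cells with littermate controls. In the Smg6-cKO males both Smg6 alleles were floxed around 1 exon, and Cre was driven by the Ngn3 promoter from early postnatal spermatogonia onwards (Smg6 fx/fx;Ngn3Cre+). Controls carried no Cre, but 1 or both floxed alleles (Smg6 fx/wt or Smg6 fx/fx). All animals were adult and of a mixed C57Bl/6J and SV129 background. Polyadenylated RNA was sequenced from pachytene spermatocytes (3 cKO and 3 control libraries) and round spermatids (3 cKO and 3 control). Both fractions were enriched by sedimentation through a BSA gradient, and they were not pure. Total RNA was sequenced from chromatoid bodies (CBs), the RNA-rich cytoplasmic granules of haploid germ cells, which were isolated with an antibody to DDX4 from pooled mice (3 cKO and 4 control libraries).

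The acrosome grows from Golgi-derived vesicles that fuse on the spermatid nucleus, first as a granule and later as a cap. It holds proteases, hyaluronidases and matrix proteins that are released by exocytosis when the sperm meets the egg. Many of its mRNAs are made long before the protein is needed, some of them already during meiosis and others only after it, and spermatids store mRNAs that are translated later. The comparisons ask how the mRNAs of this organelle stood in germ cells without SMG6 at each of these stages and in the granules of spermatids.

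Each spermatocyte or round spermatid library held 36419197 to 47355837 gene counts and each CB library 2705277 to 12103906. Levels are given as CPM (gene counts in 1000000) after TMM scaling, which was fitted jointly over the 12 cell libraries and separately over the 7 CB libraries. Smg6 itself had CPM of 172, 166 and 109 in control spermatocytes and 189, 189 and 182 in cKO spermatocytes. In round spermatids it had 217, 143 and 235 in control and 190, 203 and 195 in cKO, and in CBs 256 to 283 in control and 231 to 292 in cKO. Gene counts of Smg6 did not pass the test in any of these 3 comparisons (adjusted p = 0.36, 0.97 and 0.91 in edgeR's quasi-likelihood test), and counts over the whole gene do not resolve the deleted exon. The 10 spermatocyte markers (Sycp1, Sycp2, Sycp3 and others) summed to 1619 to 1787 CPM (here and for all sums without TMM) in control spermatocytes and 840 to 935 in control round spermatids. Of these, 5 passed as lower in control round spermatids, 1 (Tex15) as higher and 4, Dmc1 among them, did not pass. The 10 late spermatid markers (Prm1, Tnp1, Odf1 and others) summed to 4278 to 8376 and 23616 to 29238. The TMM factors of the 3 control round spermatid libraries were 0.716 to 0.767, against 1.0 to 1.18 in the other 9 cell libraries, so that changes that involve control round spermatids depend on the scaling. By the study's methods the spermatocyte and round spermatid libraries are biological replicates, with cells taken from several testes. For the CB libraries the sources used here do not say what separates the replicates, so p values there measure the spread between these libraries, which may be technical.

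The 10 genes lie on 7 chromosomes (GRCm38, GENCODE vM21 positions). Acr is at chr15:89568326-89574585, Acrv1 at chr9:36693220-36698843 and Spaca1 at chr4:34024874-34050191. Acrbp (chr6:125049689-125063267) and Spam1 (chr6:24791188-24801048) are on chromosome 6. Spaca3 (chr11:80858365-80867814), Zpbp (chr11:11279626-11462408) and Zpbp2 (chr11:98551097-98558665) are on chromosome 11 but not next to each other. Spaca4 (chr7:45725107-45725813) has 1 exon and lies opposite the gene Fam83e, and Spaca7 is at chr8:12573029-12600744. Acrbp and Zpbp each overlap a gene on the same strand (Gm44597 and Gm26458), so shared reads cannot be told apart there. The 3' UTR of the longest coding transcript was 2977 bases in Zpbp and 84 to 352 bases in the other 9 genes.

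RefSeq promoter windows (GRCm38.p6, 250 bases before to 50 bases after the start of transcription) were given for 9 of the 10 genes, all but Acr. They were searched on both strands for 5 motifs of factors known to act in spermatocytes and spermatids. No window held the full CRE letters TGACGTCA, which 1.78% of the windows of all 27025 genes held. The CRE half-site TGACG was in 4 of 9 windows (Acrbp, Spaca1, Spaca3 and Zpbp2), against 20.7% of all genes, and overlaps with the full CRE by its letters. The SOX motif ACAAT was in 2 of 9 (Acrv1 and Spam1, 31.7% of all genes), the RFX half-site GTTGCC in 1 of 9 (Acrbp, 12.6%) and the MYB motif AACNG in 7 of 9 (80.3%). The windows of 4 genes with large changes in cKO round spermatids on the TMM scale are given, and that of Zpbp2, with the smallest. They are in lower case with CRE half-sites and SOX motifs in capitals. The MYB motif, which most windows hold, is not marked.
Acrv1, chr9:36692970-36693269, plus strand: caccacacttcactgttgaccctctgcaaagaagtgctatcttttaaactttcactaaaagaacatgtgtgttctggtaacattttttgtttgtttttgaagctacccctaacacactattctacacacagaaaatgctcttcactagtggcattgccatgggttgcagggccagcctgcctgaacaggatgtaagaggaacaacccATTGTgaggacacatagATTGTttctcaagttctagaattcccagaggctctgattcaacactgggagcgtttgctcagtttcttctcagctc
Spaca1, chr4:34050016-34050315, minus strand: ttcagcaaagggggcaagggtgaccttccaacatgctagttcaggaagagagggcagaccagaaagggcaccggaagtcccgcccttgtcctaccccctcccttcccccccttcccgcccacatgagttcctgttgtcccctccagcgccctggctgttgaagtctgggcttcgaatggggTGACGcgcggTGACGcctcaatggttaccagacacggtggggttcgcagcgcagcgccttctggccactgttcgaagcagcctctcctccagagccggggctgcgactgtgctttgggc
Spaca4, chr7:45725767-45726066, minus strand: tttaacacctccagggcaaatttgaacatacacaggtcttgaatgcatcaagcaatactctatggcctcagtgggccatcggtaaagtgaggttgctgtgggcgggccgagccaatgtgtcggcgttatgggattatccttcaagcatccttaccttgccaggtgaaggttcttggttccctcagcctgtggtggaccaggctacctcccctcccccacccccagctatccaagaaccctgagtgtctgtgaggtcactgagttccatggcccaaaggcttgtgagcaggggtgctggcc
Spam1, chr6:24790938-24791237, plus strand: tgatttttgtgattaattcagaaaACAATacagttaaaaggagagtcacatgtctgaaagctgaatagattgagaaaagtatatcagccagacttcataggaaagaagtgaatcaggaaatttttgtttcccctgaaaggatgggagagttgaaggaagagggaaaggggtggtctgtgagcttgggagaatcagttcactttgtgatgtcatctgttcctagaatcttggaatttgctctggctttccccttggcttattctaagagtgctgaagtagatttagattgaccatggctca
Zpbp2, chr11:98550847-98551146, plus strand: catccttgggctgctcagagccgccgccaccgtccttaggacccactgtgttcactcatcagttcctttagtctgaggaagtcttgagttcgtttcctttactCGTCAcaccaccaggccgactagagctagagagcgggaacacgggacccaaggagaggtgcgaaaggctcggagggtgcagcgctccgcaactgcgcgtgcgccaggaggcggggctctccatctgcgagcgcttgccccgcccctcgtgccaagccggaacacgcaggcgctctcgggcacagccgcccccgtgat
The windows of Spaca1 and Zpbp2 held the half-site, those of Acrv1 and Spam1 the SOX motif, and that of Spaca4 none of the 5 motifs. A match describes these letters only.

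In control mice, levels of all 10 genes were higher in round spermatids than in spermatocytes on the TMM scale, but by different amounts. A gene counts as called where its log2 fold change was 1.5 or more in size and its adjusted p 0.05 or less, and 6 members met both. The log2 fold changes of Acrv1, Spaca1, Spaca3, Spaca4, Spaca7 and Spam1 were 1.81 to 1.99 (SE 0.20 to 0.25, adjusted p = 0.00021 to 0.00035). Acr (0.71), Zpbp (0.64), Acrbp (0.53) and Zpbp2 (0.24) rose less, with adjusted p from 0.00049 to 0.017. The 10 of 10 that passed the test as higher compare with 36.2% of all genes tested, and the 6 called higher with 17.0%. The lowest round spermatid library lay above the highest spermatocyte library for all 10 genes, which was so for 42.0% of all genes. With library size as the only scaling, under which the median over all genes was -0.54 in place of -0.08, the 6 genes still rose by 1.37 to 1.55, Acr (0.26) also passed as higher (7 of 10, against 25.3% of all genes), Acrbp (0.08) and Zpbp (0.18) no longer passed, and Zpbp2 turned to -0.22 (adjusted p = 0.019). The TMM rise of Zpbp2 also missed the threshold without control round spermatid library 1 (0.22, adjusted p = 0.053) or control spermatocyte library 2 (0.18, 0.089) or 3 (0.24, 0.054).

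Per kilobase of merged exons, Zpbp2 was the most abundant of the 10 in control spermatocytes, at 214 ± 8.43 CPM per kb (SD, n = 3). Acrbp (146 ± 8.85) and Acr (139 ± 14.1) followed and did not differ beyond their spread. Zpbp and the 6 genes with the larger rise were at 65.6 CPM per kb or less, down to Acrv1 (29.1 ± 7.84) and Spam1 (24.1 ± 7.77). In control round spermatids the 10 genes lay closer together, from 276 ± 9.69 for Zpbp2 and 259 ± 8.26 for Spaca3 to 98.9 ± 6.08 for Zpbp and 95.8 ± 4.08 for Spam1. Acr, Acrbp and Zpbp2 thus stood high already in the spermatocyte fraction. The order depends on the length used, since merged exons also hold the bases of retained-intron forms. They span 3647 bases in Acrv1 and 3277 in Acrbp, whereas the coding transcripts ENSMUST00000034620 and ENSMUST00000088294 have 1101 and 1883.

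**Figure D1:**
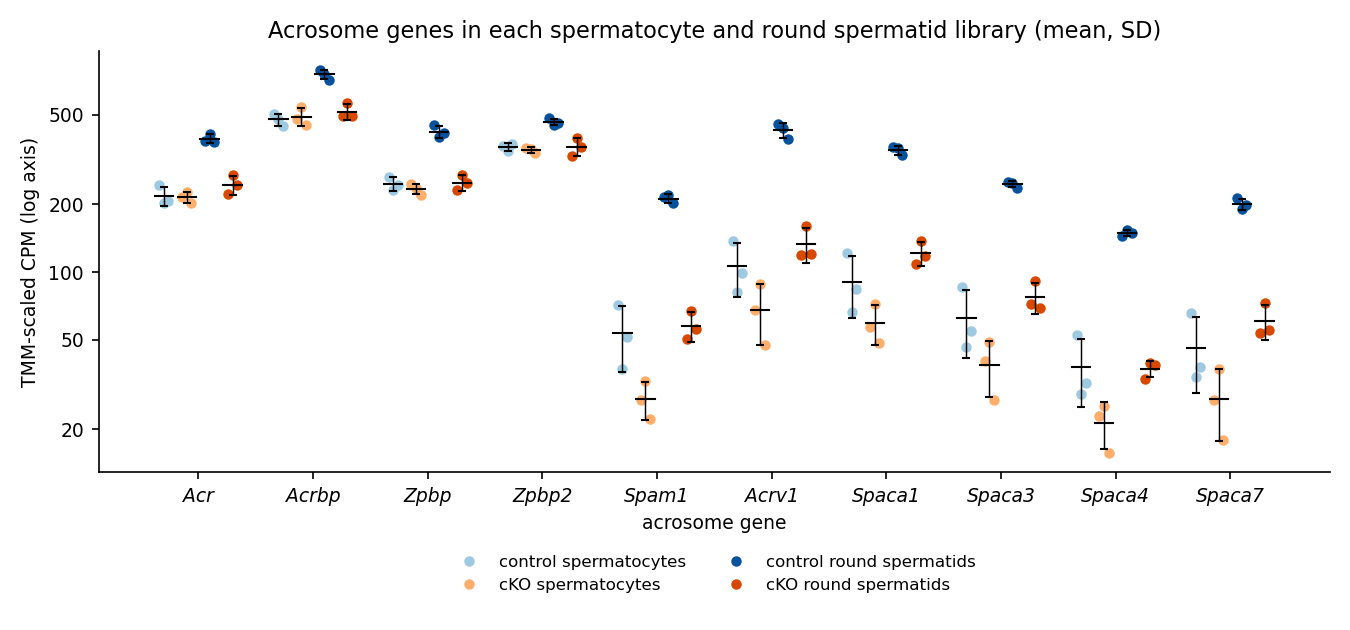
Level of each acrosome gene in every spermatocyte and round spermatid library, as TMM-scaled CPM on a log axis, with the mean (line) and SD of 3 libraries per group. The control round spermatid points (dark blue) lie above those of the other 3 groups for all 10 genes on this scale, and with library size as the only scaling Zpbp2 and Acrbp are not lower in cKO round spermatids.

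In cKO round spermatids all 10 genes were lower than in control on the TMM scale, and the groups did not overlap for any of them. All 10 passed the test as lower, against 34.3% of the 17492 genes tested, and 6 of 10 were called lower (log2 fold change of -1.5 or below), against 11.6%. Groups did not overlap, with cKO lower, for 36.9% of all genes. The median log2 fold change of the 10 genes was -1.58, beside 0.11 over all genes tested. The controls of this comparison are the round spermatid libraries that entered the stage comparison above. In bulk RNA, fewer cells of a type and less RNA per cell cannot be told apart.

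Of the enzymes, Spam1 encodes the hyaluronidase PH-20, which opens the cumulus matrix. It had CPM of 215, 220 and 202 in control round spermatids and 50.4, 67.4 and 55.7 in cKO, and its log2 fold change of -1.86 had an SE of 0.11 (adjusted p = 2.8e-06 in edgeR). Every cKO library lay far below the lowest control library. Acr encodes the precursor of acrosin, the serine protease of the acrosome. It had 383, 412 and 380 in control and 222, 269 and 243 in cKO (log2 fold change -0.67, SE 0.08, adjusted p = 0.00015). The groups were apart, but by a smaller factor than for Spam1. ACRBP binds the acrosin precursor and takes part in packing it into the granule. Acrbp was the most highly counted member, with 789, 762 and 717 in control and 493, 566 and 492 in cKO (-0.53, SE 0.07, adjusted p = 0.00033).

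The next pair encode matrix proteins that bind the zona pellucida. Zpbp, needed for a compact acrosome, had CPM of 449, 398 and 415 in control round spermatids and 231, 270 and 249 in cKO (log2 fold change -0.74, SE 0.08, adjusted p = 6.6e-05). Its paralogue Zpbp2 had 484, 453 and 459 in control and 327, 394 and 361 in cKO (-0.35, SE 0.08, adjusted p = 0.0034). On the TMM scale this was the smallest change among the 10.

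The other 5 genes encode acrosomal membrane or matrix proteins, and each was reduced to 24.9% to 34.8% of its mean control level. Spaca4, a GPI-anchored protein of the Ly6 family, fell most. Its CPM were 145, 154 and 149 in control round spermatids and 33.6, 39.3 and 38.6 in cKO (log2 fold change -1.99, SE 0.08, adjusted p = 5.8e-07). Spaca1, a protein of the inner acrosomal membrane without which sperm heads are round, had 361, 356 and 331 in control and 109, 138 and 118 in cKO (-1.51, SE 0.09, adjusted p = 3.4e-06). It lay just past the threshold of 1.5, and was no longer called without control library 1 (-1.50, just under it), cKO library 1 (-1.37) or cKO library 3 (-1.43), or with transcript counts summed per gene (-1.44). Acrv1 encodes SP-10, a marker of the acrosomal vesicle. It had 454, 439 and 391 in control and 119, 161 and 120 in cKO (-1.67, SE 0.13, adjusted p = 1.1e-05). Spaca3, a lysozyme-like protein, had 251, 250 and 237 in control and 72.0, 91.3 and 68.9 in cKO (-1.66, SE 0.11, adjusted p = 5.0e-06). Spaca7, which is released in the acrosome reaction, had 213, 191 and 198 in control and 53.4, 73.0 and 55.5 in cKO (-1.71, SE 0.12, adjusted p = 8.1e-06). In all 10 genes cKO library 2 was the highest of the cKO libraries.

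With library size as the only scaling the median over all genes was 0.73 in place of 0.11, and the members shifted with it. Acrbp and Zpbp2 turned to positive values, and the other 8 genes kept their direction. The 6 genes called lower on the TMM scale still passed the test, against 18.5% of all genes under this scaling, with log2 fold changes of -0.90 (Spaca1) to -1.38 (Spaca4) and adjusted p from 2.1e-06 to 7.8e-05, but none reached 1.5. Acr (-0.05, adjusted p = 0.57), Zpbp (-0.12, 0.12) and Acrbp (0.08, 0.31) no longer passed, and Zpbp2 was higher in cKO (0.26, adjusted p = 0.0054). DESeq2 with its own size factors gave -0.42 for Zpbp2 to -2.06 for Spaca4, and all 10 passed. Every member lay below the median of all genes under the 3 scalings.

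**Figure D2:**
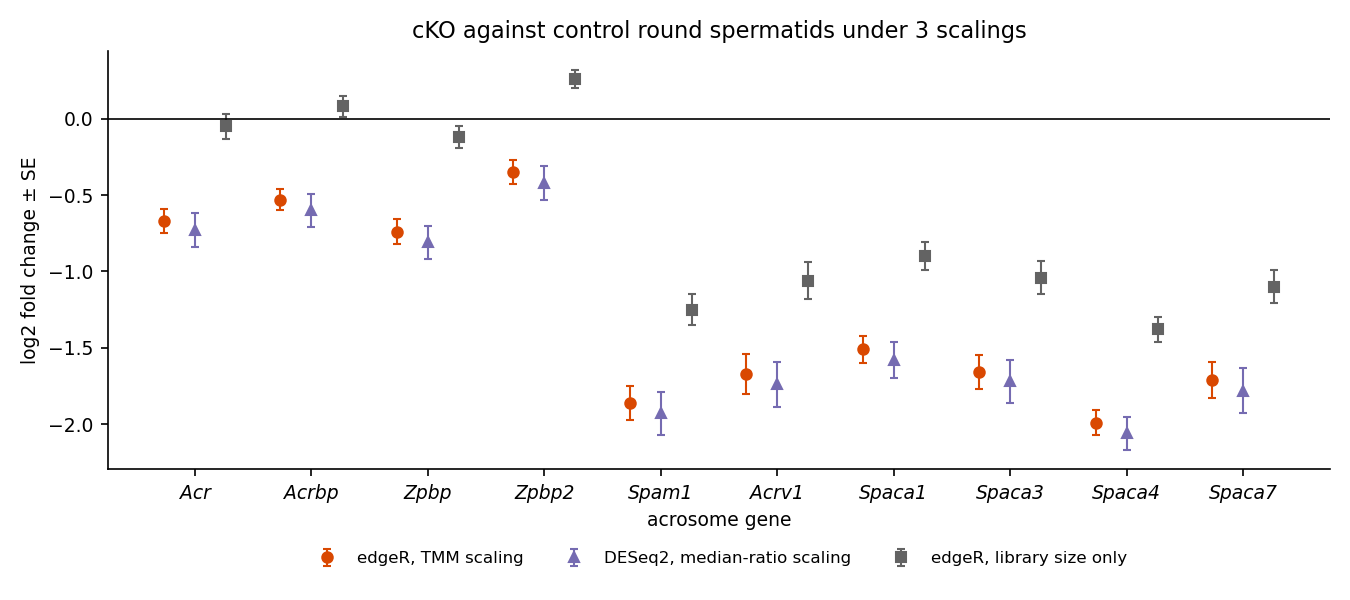
Log2 fold change (± SE) of each acrosome gene in cKO against control round spermatids under 3 scalings. The 6 genes from Spam1 to Spaca7 stay below -0.90 or at it, while Zpbp2 and Acrbp lie above 0 with library size only and below 0 with the other scalings.

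On the TMM scale, levels in cKO round spermatids overlapped with those in control spermatocytes. The ratio of the mean CPM in cKO round spermatids to that in control spermatocytes was 0.982 for Spaca4, 1.0 for Zpbp2 and 1.01 for Zpbp, up to 1.34 for Spaca1. This overlap of the libraries held for all 10 genes, against 40.3% of all genes. For Acr, Acrbp, Acrv1, Spaca1, Spaca3, Spaca4 and Spaca7 it rested on the highest control spermatocyte library alone. For Acrv1 and these Spaca genes that was library 1. The other control spermatocyte libraries lay below every cKO round spermatid library (for Acrv1, 98.7 CPM or less against 119 or more). In the order of mean levels, control round spermatids stood first and apart from the next group for every member, against 27.7% of the 18171 genes of the 4 groups. For 9 of the 10 cKO round spermatids came second, and for Spaca4 control spermatocytes did. Neighbours further down the order overlapped, except that cKO spermatocytes were last and apart for Spaca4 and Spam1. With library size only, a setting added after the data were seen, control round spermatids were first and apart for 6 of the 10 genes, against 15.4% of all genes. Acr and Zpbp overlapped with the next group, and cKO round spermatids came first for Acrbp and Zpbp2. The overlap of cKO round spermatids with control spermatocytes then held for 9 genes, all but Acrbp, against 41.0% of all genes.

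In cKO spermatocytes 2 of the 10 genes passed the test as lower, against 14.1% of the 17321 genes tested. The groups were apart, with cKO lower, for the same 2 genes, against 17.6% of all genes. Spam1 had CPM of 71.4, 37.1 and 51.6 in control spermatocytes and 27.1, 32.7 and 22.2 in cKO (log2 fold change -1.08, SE 0.26, adjusted p = 0.024). Spaca4 had 52.5, 28.8 and 32.3 in control and 23.0, 25.5 and 15.7 in cKO (-0.94, SE 0.28, adjusted p = 0.045). Control library 1 was the highest of all 6 for both genes. Without it the log2 fold change was -0.78 (adjusted p = 0.037) for Spam1 and -0.60 (0.08) for Spaca4. Neither gene passed without control library 3, cKO library 1 or cKO library 3 (log2 fold changes of -0.93 to -1.11 for Spam1 and -0.74 to -1.05 for Spaca4, adjusted p = 0.064 to 0.12). The log2 fold changes of Acrv1 (-0.76), Spaca1 (-0.72), Spaca3 (-0.81) and Spaca7 (-0.86) had adjusted p from 0.068 to 0.096 in edgeR, and in DESeq2 these 4 passed as well (adjusted p = 0.033 to 0.045). Acr (-0.13), Acrbp (-0.07), Zpbp (-0.18) and Zpbp2 (-0.15) had adjusted p from 0.11 to 0.61. The median over the 10 genes was -0.74, beside -0.01 over all genes.

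The late spermatid markers moved with the members among these libraries. They summed to 8376, 4278 and 4321 in control spermatocyte libraries 1, 2 and 3 and to 1072, 1565 and 498 CPM in the cKO libraries. Library 1 of control and library 2 of cKO were highest for the markers and also for Spam1, Spaca4, Acrv1, Spaca1, Spaca3 and Spaca7, and library 3 of cKO was lowest. In round spermatids the same sum was 23616 to 29238 in control and 2303 to 2470 in cKO, and 10 of 10 of these markers were lower, by 3.05 to 5.36 on the log2 scale. The part of late spermatids in the members' changes was not tested.

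Markers of other cells also differed between the round spermatid groups. The 10 spermatocyte markers summed to 840 to 935 CPM in control and 1324 to 1446 in cKO, and 5 of 10 rose and 2 fell (8 and 1 with library size only). All 10 macrophage markers rose, from sums of 26.2 to 37.8 CPM in control to 276 to 454 in cKO. All 8 tested of 10 Leydig cell markers rose (7.59 to 8.48 and 42.4 to 447 CPM), as did 9 of 9 tested Sertoli cell markers (45.6 to 56.4 and 102 to 279). Among these, Hsd17b3 and Amh were near 0 in control (TMM-scaled CPM of 0.0967 to 0.263 and 0.0658 to 0.269). They passed the count filter only through cKO libraries, so the filter favoured a rise. No marker of these lists was at 0 in every library of either group. In spermatocytes 9 of 10 macrophage markers rose and 1 fell, 4 of 9 Leydig markers rose and 7 of 10 Sertoli markers fell, and the macrophage sum stayed at 90.6 CPM or below. The part of these cells in the members' levels was not tested.

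The rise from spermatocytes to round spermatids was smaller without SMG6 on the TMM scale. In cKO, 6 of the 10 genes passed the test as higher in round spermatids, against 18.9% of all genes. They were Spam1, Acrv1, Spaca1, Spaca3, Spaca4 and Spaca7, and their log2 fold changes were 0.78 (Spaca4, SE 0.18, adjusted p = 0.01) to 1.13 (Spaca7, SE 0.26, adjusted p = 0.0096). Acr (0.16), Zpbp (0.07), Acrbp (0.05) and Zpbp2 (0.03) had adjusted p from 0.19 to 0.82. With library size only, Acr (0.30, adjusted p = 0.015) and Zpbp (0.21, 0.021) passed too, which made 8 of 10 against 25.3% of all genes. Acr also passed without cKO round spermatid library 1 (0.31, adjusted p = 0.038). For Acr, Zpbp, Acrbp and Zpbp2, on the TMM scale, the cKO libraries of the cell types overlapped. For Acrv1, mean levels went from 106 ± 28.6 to 428 ± 33.0 CPM in control (SD, n = 3) and from 67.8 ± 20.4 to 133 ± 24.1 in cKO.

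**Figure D3:**
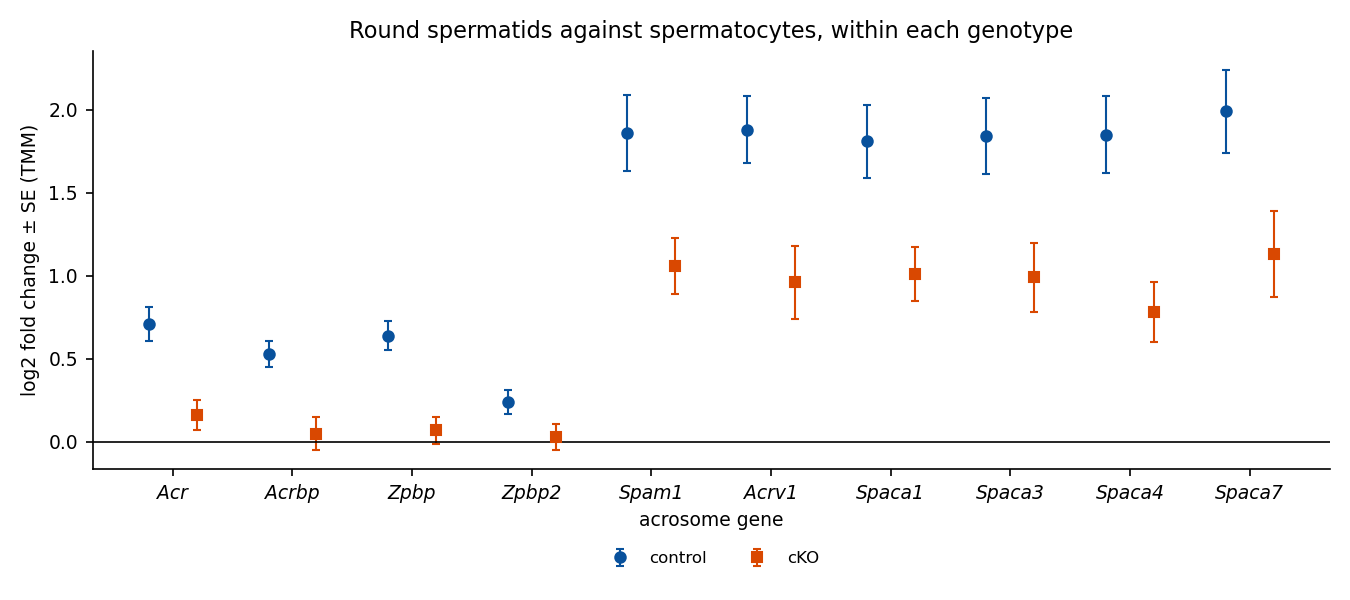
Log2 fold change (± SE, TMM scaling) of each acrosome gene in round spermatids against spermatocytes, within control (circles) and within cKO (squares). The genes from Spam1 to Spaca7 rose by 1.81 to 1.99 in control and 0.78 to 1.13 in cKO, and Zpbp2 turns to -0.22 in control when library size alone is used.

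The difference between the genotypes in this rise, tested as the interaction of genotype and cell type over all 12 libraries, passed for 9 of the 10 genes as lower, against 24.1% of the 18171 genes tested. Within this joint fit, the interaction is also the change in round spermatids minus the change in spermatocytes. The joint fit has its own scaling, so the changes of the separate fits above do not subtract to it exactly. The interaction was -1.18 (SE 0.31, adjusted p = 0.01) for Spaca4 and -1.04 (SE 0.32, adjusted p = 0.024) for Acrv1, and -0.66 (SE 0.13, adjusted p = 0.0026) for Acr. Spaca7 (-0.98, SE 0.38) had an adjusted p of 0.058. Zpbp2 did not pass in DESeq2 (-0.25, adjusted p = 0.1), without a count filter (-0.28, 0.063) or with transcript counts summed per gene (-0.25, 0.071), where Spaca3 did not pass either (-0.89, 0.051). Fewer genes passed when any 1 of 9 of the 12 libraries was left out. The fewest were 5 without control spermatocyte library 3 and 4 without cKO round spermatid library 1 or 3 or cKO spermatocyte library 2. When any 1 of these 4 was left out, Acrv1, Spaca1, Spaca3 and Spam1 were among the genes that did not pass (adjusted p = 0.055 to 0.094). With library size as the only scaling, under which the median over all genes was 0.58 in place of -0.13, none of the 10 passed as lower, against 3.00% of all genes, and Zpbp2 passed as higher (0.38, adjusted p = 0.0036). For the other 8 of the 9 genes the test passed under 1 of these scalings only, and for Zpbp2 it passed under both with opposite directions.

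CB libraries were made from total RNA, so levels are compared only among CBs. In cKO CBs 6 of the 10 genes passed the test as lower, against 18.4% of the 14051 genes tested, and the groups did not overlap for these 6, against 20.8%. Acrv1 was the 1 gene called lower, against 5.64% of all genes. Its CPM were 66.2, 86.5, 60.9 and 58.8 in the 4 control libraries and 19.3, 24.9 and 24.5 in cKO (log2 fold change -1.58, SE 0.20, adjusted p = 0.00013). Spam1 had 40.8, 46.7, 33.4 and 34.5 in control and 19.3, 11.5 and 10.7 in cKO (-1.49, SE 0.24, adjusted p = 0.00055). It was just under the threshold for a call. Which of these genes was called changed with single libraries: without MCTRL5 neither was (Acrv1 -1.44, Spam1 -1.39), and without MVHCTRL2, MVHCTRL3 or MKO2 both were, with Spam1 at -1.54 to -1.87. Spaca4 (-1.33), Spaca7 (-1.32), Spaca3 (-1.17) and Acr (-0.75) were also lower, with adjusted p from 0.00018 to 0.0037.

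Spaca1 differed among the cKO CBs. It had CPM of 75.7, 59.0, 71.6 and 75.9 in control and 65.9, 41.0 and 33.6 in cKO, where the first library lay within the control range. The log2 fold change was -0.59 (SE 0.22, adjusted p = 0.0505), and -0.98 (adjusted p = 0.0021) without that library. Zpbp (-0.49, adjusted p = 0.062), Acrbp (-0.12, 0.71) and Zpbp2 (-0.12, 0.61) did not pass. Acrbp ranged from 75.6 to 157 CPM among the 3 cKO libraries and from 97.9 to 135 among the controls. The directions of all 10 genes stayed negative with library size as the only scaling (-0.27 to -1.75) and in DESeq2. Among the CB libraries the late spermatid markers summed to 2766 to 5928 CPM in control and 414 to 651 in cKO, and all 10 of them fell. The spermatocyte markers summed to 793 to 1407 and 686 to 1136, and 2 of 10 passed as lower (Tex15 and Sycp1). The Leydig cell markers (20.9 to 63.4 and 55.8 to 482) rose in 8 of 8 tested and the macrophage markers (14.8 to 18.8 and 18.2 to 83.3) in 3 of 5. Of 7 Sertoli cell markers tested (10 summed to 33.0 to 34.8 and 32.3 to 78.7), 2 rose (Gata4 and Clu) and none fell, with a median log2 fold change of 0.89. In all cKO CBs 1 Leydig and 1 Sertoli cell marker were at 0. The part of the mixture of cells in the CB result was not tested.

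**Figure D4:**
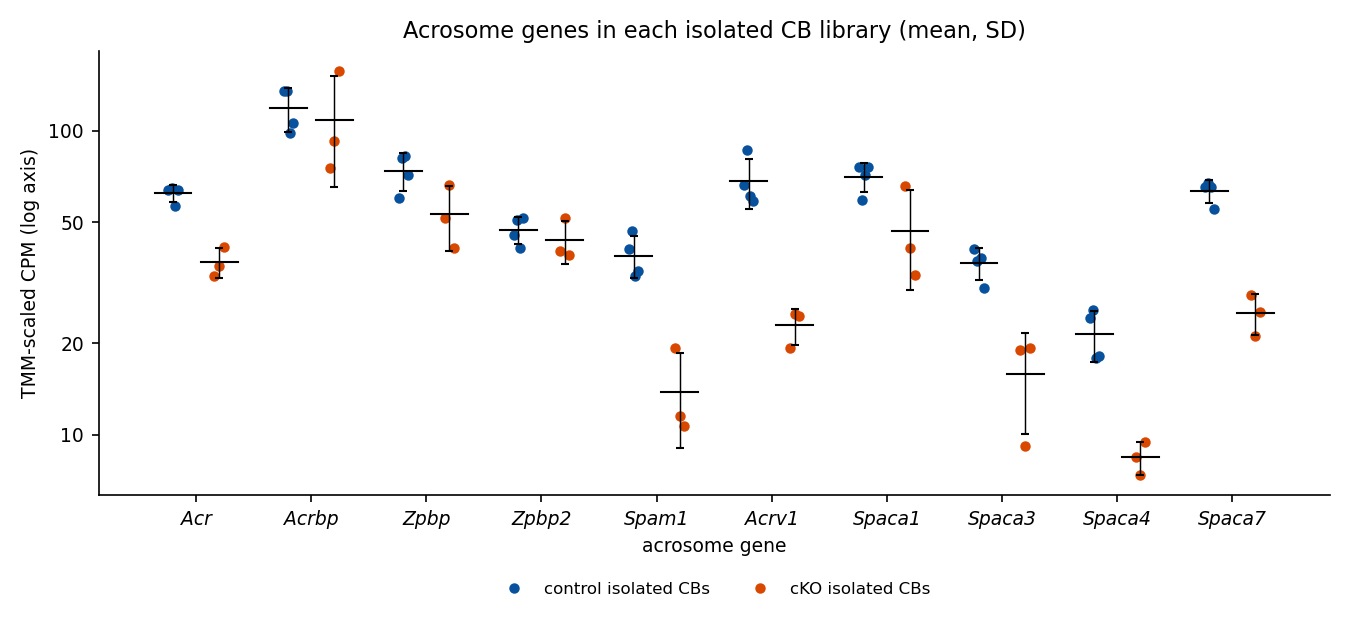
Level of each acrosome gene in every isolated CB library, as TMM-scaled CPM on a log axis, with the mean (line) and SD of 4 control and 3 cKO libraries. Acrv1, Spam1, Spaca3, Spaca4, Spaca7 and Acr do not overlap between the groups, whereas Acrbp, Zpbp, Zpbp2 and Spaca1 do.

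At the level of Ensembl transcripts, 28 of the 35 annotated transcripts of the 10 genes were in the deposited tables and were tested, and the other 7 were not analysed here. Transcripts of 1 gene share reads, so they are not independent. In round spermatids 27 of 28 were lower (36.0% of all transcripts tested), in spermatocytes 5 (4 of Spam1 and that of Spaca4, 12.5%) and in CBs 12 (18.1%). With library size as the only scaling 13 of 28 were lower in round spermatids, against 20.1% of all transcripts under it. The 1 exception in round spermatids was ENSMUST00000136100, a retained-intron transcript at the 3' end of Acrbp. Its log2 fold change was 0.12 (SE 0.10, adjusted p = 0.33) in round spermatids and 0.44 (adjusted p = 0.033) in spermatocytes. The coding transcripts of Acrbp were at -0.32 to -0.57 in round spermatids. The retained-intron transcript of Acrv1 (ENSMUST00000184160, -1.56) moved as its coding transcript did (-1.58).

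The transcripts of Spaca1 had different values in CBs. The short coding form ENSMUST00000108148, which begins within the gene, had 8.82, 13.4, 10.1 and 5.28 transcript counts in 1000000 in control CBs and 3.57, 1.78 and 3.14 in cKO (log2 fold change -1.31, SE 0.22, adjusted p = 0.0019). It did not overlap between the groups, and its counts were 7 to 21 in cKO. Of the longer forms, ENSMUST00000029927 had 35.1, 26.4, 29.0 and 22.0 in control and 28.5, 10.7 and 12.4 in cKO (-0.37, SE 0.25, adjusted p = 0.26), and its groups overlapped. ENSMUST00000084734 had 34.8, 26.0, 29.2 and 22.1 in control and 27.3, 10.4 and 12.7 in cKO (-0.40, SE 0.24, adjusted p = 0.21), and its groups overlapped too. In round spermatids the 3 forms were at -1.42 to -1.44. The difference between the forms in CBs was not tested.

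Other genes of the acrosome were taken from 3 lists chosen with earlier results of these data known. Of 12 further genes of acrosome content, 12 were lower in cKO round spermatids and 6 were called, with a median of -1.45. The shares over all genes were 34.3% lower, 38.4% higher and 11.6% called lower. The lowest were Eqtn (equatorin, -2.66, adjusted p = 1.9e-06), the hyaluronidase gene Hyal5 (-2.02, 5.2e-07) and the lysozyme-like gene Lyzl4 (-1.89, 3.2e-06). The highest were the protease gene Prss21 (-0.24, adjusted p = 0.029), the proprotein convertase gene Pcsk4 (-0.63, 0.00067) and Spaca5 (-0.64, 0.0023). With library size as the only scaling 9 of the 12 were lower, against 18.5% of all genes under it, and Prss21 was higher (0.38, adjusted p = 0.0021), as 58.5% of all genes were.

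Genes needed to build the acrosome moved in both directions. Of 15, 11 were lower and 4 higher in cKO round spermatids on the TMM scale, with a median of -0.44. The lowest were Ccin (calicin, a protein of the sperm head cytoskeleton, -2.54, adjusted p = 1.5e-06), Spata46 (-2.23, 2.0e-06) and the actin-like gene Actl7a (-2.16, 9.4e-07). The highest were the Golgi trafficking genes Gopc (0.99, adjusted p = 0.00011) and Vps54 (0.82, 0.0013) and Pick1 (0.54, 0.0014). With library size only, 6 were lower and 7 higher, against 18.5% and 58.5% of all genes under that scaling. Of 7 regulators of spermatid genes, 5 were lower and 1 higher on the TMM scale (3 and 2 with library size only). Fhl5, which encodes the CREM coactivator ACT, was at -2.84 (adjusted p = 9.4e-07), Sox30 at -1.39 (1.5e-06) and Crem at -1.12 (2.2e-06). Mybl1, which encodes the meiotic factor A-MYB, was at 0.67 (8.7e-05), Taf7l at 0.20 (0.11) and Rfx2 at -0.64 (5.8e-05). In spermatocytes 5 of 12, 3 of 15 and 1 of 7 genes of these lists were lower, against 14.1% of all genes, and in CBs 7, 5 and 2, against 18.4%. Of the 15, 2 were higher in spermatocytes (Pick1 and Dpy19l2), beside 2431 of all 17321 genes tested. In CBs 1 of the 15 was higher (Vps54), beside 2547 of all 14051. No gene of the other lists passed as higher in either.

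**Figure D5:**
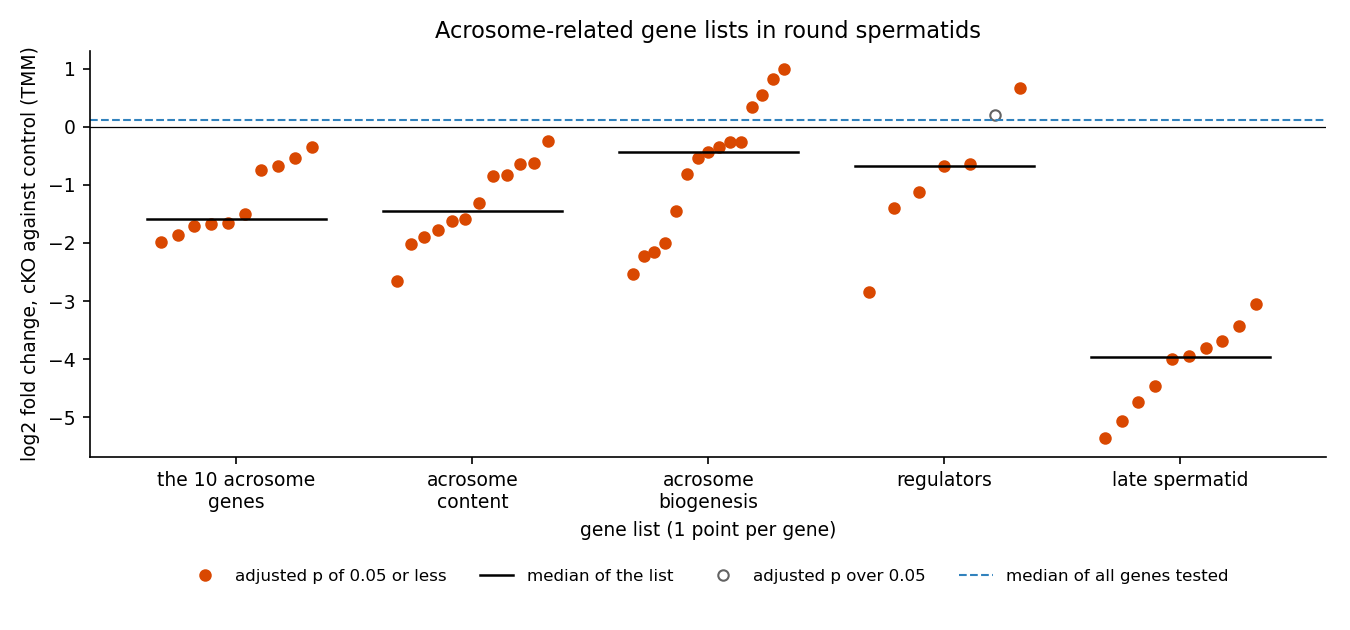
Log2 fold change in cKO against control round spermatids (TMM scaling) of each gene of 5 lists, with the median of each list and of all genes tested (0.11, dashed). All 10 acrosome genes lie below 0 on this scale, from -1.99 to -0.35, all above the late spermatid genes, and Zpbp2 and Acrbp lie above 0 when library size alone is used.

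Summed over the 10 genes without TMM, acrosome mRNAs took 1754 to 2063 CPM in control spermatocytes and 1535 to 1774 in cKO. They took 2493 to 2787 in control round spermatids and 2013 to 2329 in cKO, and 470 to 746 and 290 to 401 in CBs. In round spermatids and in CBs the groups did not overlap. Over the 12 cell libraries, the genes whose level followed the mean standardised level of the 10 most closely were Ptpn4 (Pearson r = 0.997), Usp7 (0.996), Creld2 (0.996), 4933431G14Rik (0.995) and Ddx20 (0.995), out of 18161 genes ranked. The points share libraries and the scaling, and r of the members themselves with that mean was 0.954 (Zpbp2) to 0.993 (Acrv1).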

How the data were processed

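Long RNA of 19 libraries was used. The authors trimmed reads with cutadapt and aligned them to GRCm38 with STAR (versions 2.8 and 2.7.1a in the submitters' processing notes). The deposited gene tables hold whole-number counts per gene symbol made by the authors with TEtranscripts in reverse stranded mode. The deposited transcript tables hold expected counts, since reads that matched several transcripts were shared by the authors, and these were rounded to whole numbers. Columns of the CB tables could be matched to a group but not to a single sample. Controls with 1 and with 2 floxed alleles are not told apart in the labels.

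The tests were made in R 4.3.3 with edgeR 4.0.16, by its quasi-likelihood test after TMM scaling. They were two-sided, and p values were adjusted by the Benjamini-Hochberg method over every feature of a comparison. A fit held the libraries compared. Genes needed a minimum of 10 counts and transcripts a minimum of 20 in 3 libraries, and all 10 acrosome genes passed this filter in each comparison. Each fit was scaled by itself, so a fold change can differ slightly from the ratio of the jointly scaled means. A feature passed where the adjusted p was 0.05 or less, and was called where its log2 fold change was also 1.5 or more in either direction. Standard errors come from the F statistic. Likeness used log2(CPM + 0.5). The alternatives were DESeq2 1.42.0, library size without TMM, other count filters, transcript counts summed per gene, the replicate number as a block, other denominators of shares, and each library left out. The procedure was tested on simulated data. Replicates of a group differed by more than sampling noise (chi-square per degree of freedom 9.89 to 82.3). Members, lists and motifs were chosen with earlier results of these data known. Genes to name were all 10 members, Smg6, at most the 3 highest and 3 lowest of each further acrosome list in round spermatids, and the 5 genes most like the members. Transcripts of Spaca1, Acrbp and Acrv1 and the marker genes given as examples were named after their values were seen. Small RNA tables were not used. Python 3.11.15 with pandas 2.3.3 and matplotlib 3.10.9 made the tables and figures.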

Additional observations from a re-analysis of the deposited data

Results flagged for a closer look

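The change of cKO against control differed between round spermatids and spermatocytes for 9 of the 10 acrosome genes in the interaction test on the TMM scale. The difference on the log2 scale was -0.66 for Acr, -1.04 for Acrv1, -0.59 for Acrbp, -0.91 for Spaca1, -0.97 for Spaca3, -1.18 for Spaca4, -0.91 for Spam1, -0.68 for Zpbp and -0.32 for Zpbp2. Each passed the test in edgeR (adjusted p = 0.0014 to 0.035), and none of them passed as lower when library size was the only scaling. In isolated control CBs, Acr was at 56.4 CPM in the library MVHCTRL2, far from the other 3 libraries (63.7, 64.8 and 64.0) for the range of these 4 values. A value this far out is expected by chance in about 1 of 20 groups, and 10 genes were examined.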

How the results depend on the processing

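With library size only, 6 of 10 genes and 13 of 28 transcripts were lower in cKO round spermatids (10 and 27 with TMM), 0 were called (6), 1 was called higher in control round spermatids against spermatocytes (6), and 0 had a lower interaction (9). Control round spermatids were then first and apart from the next group for 6 genes (10), in a comparison added after the data were seen. Reversed under it were Acrbp (0.08) and Zpbp2 (0.26) in round spermatids, Zpbp2 (-0.22) in the control stage comparison, and Acr (0.04), Acrbp (0.12), Zpbp (0.03) and Zpbp2 (0.38) in the interaction. In spermatocytes 2 genes and 5 transcripts were lower with edgeR and 6 and 13 with DESeq2. In CBs 6 genes passed as lower with edgeR and 7 with DESeq2, and 2 more than in the main fit passed without a count filter. As for calls in CBs, 1 gene was called with edgeR, and 2 with DESeq2, with library size only, without a count filter and with transcript counts summed per gene. The median share of CB counts on the 10 genes was 430 in place of 657 CPM in control, and 245 in place of 376 in cKO, with transposable elements in the denominator.

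As each library was left out, 0 to 3 genes and 0 to 8 transcripts were lower in spermatocytes. There were 0 of each without control library 3, cKO library 1 or cKO library 3, 1 gene without control library 1, and 8 transcripts without control library 2. In CBs 0 to 2 genes were called, with 0 without MCTRL5 and 2 without MVHCTRL2, MVHCTRL3 or MKO2. The interaction passed as lower for 4 to 10 genes (5 without control spermatocyte library 3, and 4 without round spermatid cKO library 1, cKO library 3 or spermatocyte cKO library 2). Over these fits, Acrbp ranged from -0.14 to 0.00 in spermatocytes (0.00 without control library 1), from -0.50 to 0.04 in CBs (0.04 without MKO2) and from -0.02 to 0.21 between the cKO cell types, where Zpbp2 ranged from -0.05 to 0.18 (both below 0 without round spermatid library 2), and neither gene passed where its sign turned. The 10 genes in round spermatids passed in all 60 such fits.

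No label says whether libraries with the same number share an animal, and the main tests treated them as unpaired. Correlations of the deviations of same-numbered libraries ran from -0.303 to 0.614, and those of unlike numbers from -0.532 to 0.54. The highest was between round spermatid and spermatocyte library 2 of cKO, so these correlations do not settle whether the samples are paired. With the number as a replicate block, 1 gene (Spam1) and 0 transcripts were lower in spermatocytes, Spaca4 (-0.91) lay just past the adjusted p threshold, and the counts of the other comparisons moved by less than 1.5 times. In the interaction, 1 gene more than in the main fit passed as lower with the block. CBs were not analysed as pairs, since no label says that a number in the column names marks a shared source. Depth limits CBs most, where the lowest member count in a library was 16 (Spaca4).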
